A study of Mus musculus with 2 samples.

Results

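The genes described here code for the mitochondrial solute carriers of the Slc25 family and for the protein import machinery of the mitochondrial membranes. They were chosen by symbol, with 1 gene left out: every Slc25a gene with a number, except Slc25a20, and every gene whose symbol begins with Timm or Tomm followed by a digit. The rule found 63 genes among the 14500 symbols of the table, 41 of them carriers and 22 import genes. RNA was compared between 46C cells that had received a Gbx2 vector (the library titled PB-Gbx2) and 46C cells that had received the empty vector (the library titled PB), both kept in LIF and serum and both at passages 21 to 24. 46C is a line of mouse embryonic stem cells with a green fluorescent reporter at Sox1, and Gbx2 is a homeobox transcription factor. There was 1 library per group, so no value has a replicate error and no test between the vectors was possible. Within the labels, the source names of the libraries contradict their titles. Groups follow the titles, and Gbx2 itself stood at a normalized level of 1178 in PB-Gbx2 cells and 345 in PB cells. If the source names were right, every direction given here would turn around.

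Mitochondria make few proteins of their own and take the others from the cytosol. The TOM complex of the outer membrane is the common entry gate, the TIM23 translocase threads proteins with a presequence through the inner membrane, and the small TIM chaperones carry hydrophobic proteins across the intermembrane space to the TIM22 translocase. Slc25 carriers are themselves cargo of that last route, and once inserted in the inner membrane they exchange nucleotides, phosphate, carboxylic acids, amino acids and cofactors between the cytosol and the matrix. Pluripotent stem cells rely heavily on glycolysis while keeping respiring mitochondria, and both gene sets are used by nearly every cell.

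The levels are whole numbers that the authors normalized, with the same distribution in both libraries (each library sums to 16528899, with 388 as the median), so they are not read counts and the depth is unknown. All 10 markers of pluripotent stem cells were present, with a summed level of 151057 in PB-Gbx2 cells and 116451 in PB cells. Of these, 7 were higher in PB-Gbx2 cells, 2 were lower and 1 was equal. Nanog, Klf4 and Zfp42 were at least 2-fold higher in PB-Gbx2 cells, and these 3 lay outside the middle 95% of genes of similar level. Pou5f1 and Sox2 were only 1.12-fold and 1.04-fold higher. Tfcp2l1 and Utf1 were lower, at 11892 and 3430 in PB-Gbx2 cells, against 12900 and 3843 in PB cells. Tdgf1 stood at 31035 in both. Of 10 fibroblast markers 5 had a row, with a summed level of 1058 in PB-Gbx2 cells and 1649 in PB cells, and their directions differed. Col1a1, Thy1 and Pdgfrb were lower, at 36, 492 and 486 in PB-Gbx2 cells, against 132, 866 and 626 in PB cells. Col1a2 and Twist1 were higher on low levels, at 18 and 26 in PB-Gbx2 cells, against 9 and 16 in PB cells. Of 6 neural markers 5 had a row, with a summed level of 2186 in PB-Gbx2 cells and 2006 in PB cells that hides opposite directions. Sox1, Neurod1 and Nes were higher, at 56, 517 and 733 in PB-Gbx2 cells, against 10, 150 and 405 in PB cells. Tubb3 and Map2 were lower, at 756 and 124 in PB-Gbx2 cells, against 1248 and 193 in PB cells. A list of 3 brown fat markers had 1 row, Cidea, at 138 in PB-Gbx2 cells and 38 in PB cells. It lay outside the middle 95% of genes of similar level. The part of all these markers in the results below was not tested. In such bulk RNA, fewer cells of a type and less RNA per cell cannot be told apart.

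A difference between the libraries is given as a log2 ratio, PB-Gbx2 over PB, with 1 added to each level, so that ratios of low genes are pulled towards 0. To show how far a ratio stands out, genes were split by mean level into 20 groups of 725, and its percentile was taken within its group. The top group spans mean levels from 4195 to 70328, and Slc25a4 lies near its lower edge. Of the 63 genes, 1 was at least 2-fold higher in PB-Gbx2 cells and 0 were at least 2-fold lower, against 5.14% of all genes higher and 5.26% lower. At a threshold of 1.5-fold, 3 were higher and 2 lower, against 11.6% and 12.2% of all genes. Ratios of low genes scatter more. At a mean level of at least 100, 205 of 10624 genes were 2-fold higher and 200 lower, against 0 and 0 of 50 members. None of the 63 lay outside the middle 95% of genes of similar level, where 721 of the 14500 genes did. The carrier Slc25a20, which the rule leaves out, did so at percentile 99.9 with a log2 ratio of 2.27. These counts therefore hold only without it. The median log2 ratio was 0.04 over the 63 genes, -0.05 over the carriers, 0.09 over the import genes and 0 over all genes. In the authors' deposited table, no member has an adjusted p under 1, and the smallest unadjusted p-values are 0.0632 for Slc25a36 and 0.0645 for Slc25a4. Over all rows of the authors' deposited table, 3.74% have an unadjusted p under 0.05.

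**Figure D1:**
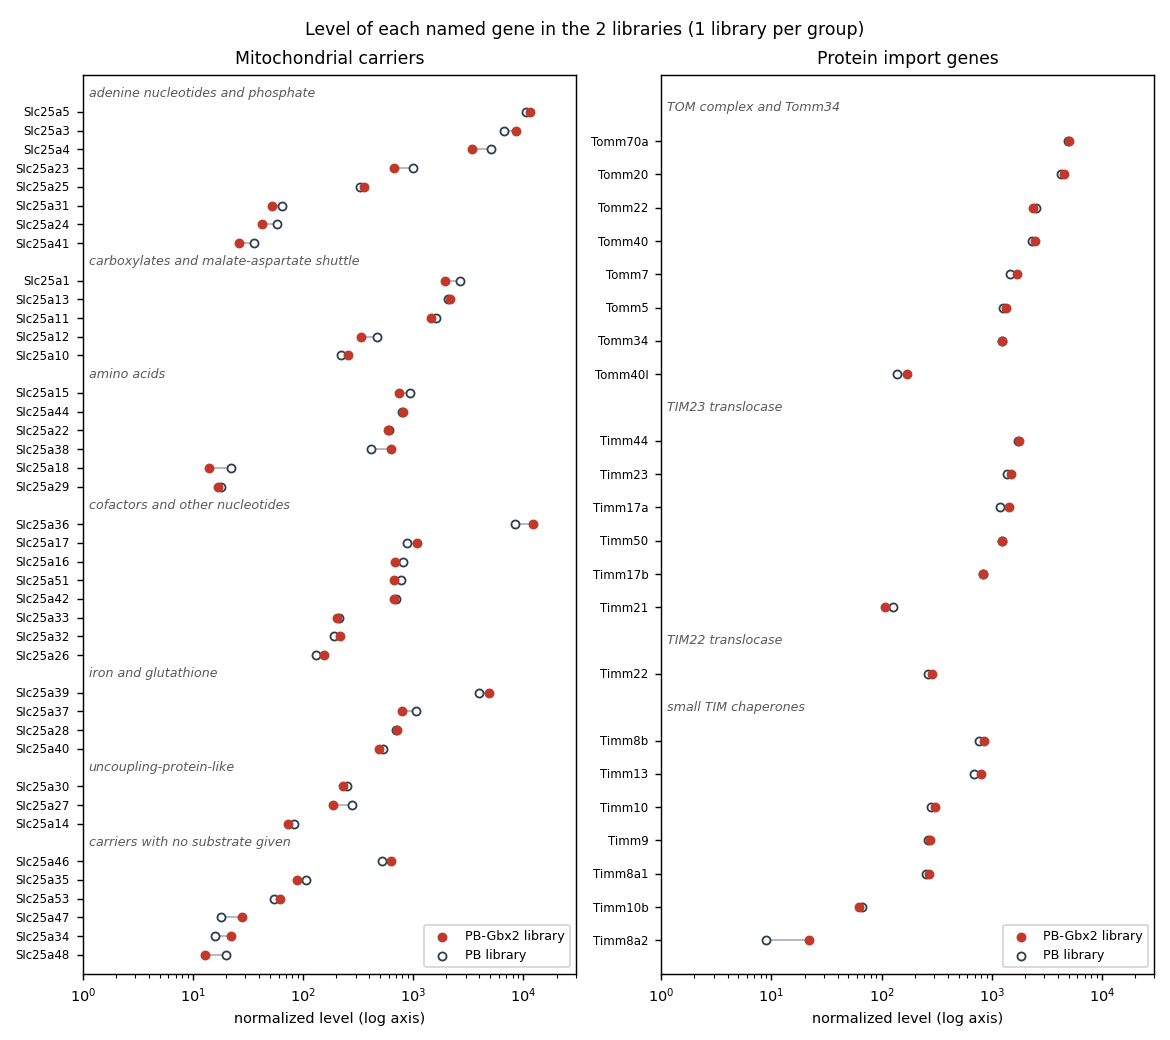
Normalized level (log axis) of the named carriers (left) and import genes (right) in the PB-Gbx2 library (filled) and the PB library (open), grouped by role, with 1 library per group. Most pairs of points lie close together, and the widest gap, that of Timm8a2, lies at levels of 22 and 9.

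**Figure D2:**
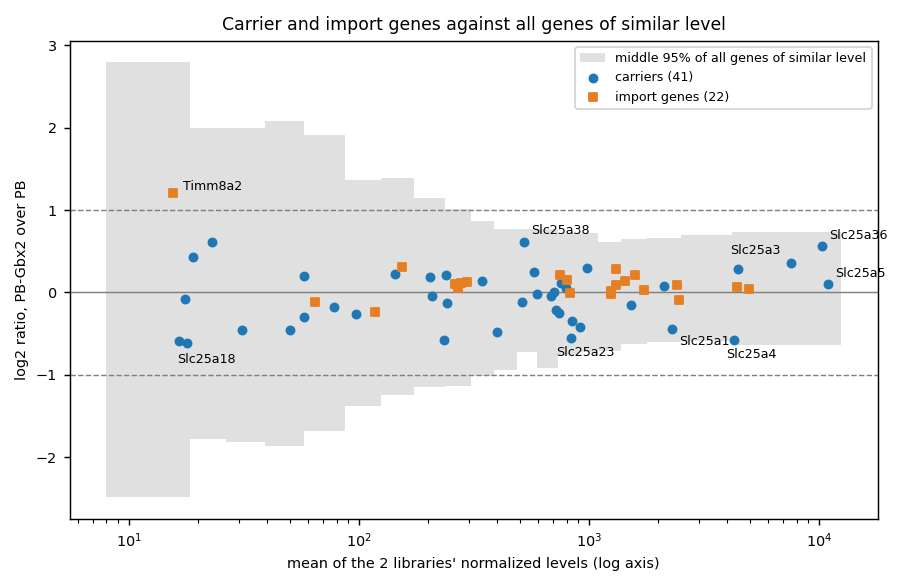
Log2 ratio (PB-Gbx2 over PB) against the mean level of each gene (log axis); the grey band holds the middle 95% of all genes of similar level and dashed lines mark 2-fold. All 63 genes lie within the band, and Timm8a2 alone passes a dashed line.

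The genes at the edges of the well expressed carriers were Slc25a36 and Slc25a38, higher in PB-Gbx2 cells, and the ADP/ATP carrier Slc25a4, lower in them, while its relative Slc25a5 differed little. Their promoter windows are shown because these genes bound the range of ratios and because the relatives Slc25a4 and Slc25a5 went apart. Each window covers 250 bases before to 50 bases after the start annotated by RefSeq on GRCm38.p6, 5′ to 3′ on the strand of the gene. They lie at chr8:46211013-46211312 on the minus strand for Slc25a4, chrX:36795347-36795646 on the plus strand for Slc25a5, chr9:97110992-97111291 on the minus strand for Slc25a36 and chr9:120110132-120110431 on the plus strand for Slc25a38. Capitals mark matches to TATAA, the core of the TATA box, or CCAAT, the core of the CCAAT box, searched on both strands.
Slc25a4: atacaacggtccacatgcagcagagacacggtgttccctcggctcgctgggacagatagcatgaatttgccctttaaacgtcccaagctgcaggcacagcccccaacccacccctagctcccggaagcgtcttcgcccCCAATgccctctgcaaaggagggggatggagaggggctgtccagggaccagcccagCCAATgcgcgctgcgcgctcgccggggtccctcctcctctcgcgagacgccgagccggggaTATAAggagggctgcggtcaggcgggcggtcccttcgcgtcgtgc
Slc25a5: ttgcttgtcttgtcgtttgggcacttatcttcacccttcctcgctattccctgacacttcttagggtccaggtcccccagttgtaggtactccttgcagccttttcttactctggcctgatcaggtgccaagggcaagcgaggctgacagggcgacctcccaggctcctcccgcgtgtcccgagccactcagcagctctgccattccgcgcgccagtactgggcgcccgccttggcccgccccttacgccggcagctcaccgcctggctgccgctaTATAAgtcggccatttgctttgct
Slc25a36: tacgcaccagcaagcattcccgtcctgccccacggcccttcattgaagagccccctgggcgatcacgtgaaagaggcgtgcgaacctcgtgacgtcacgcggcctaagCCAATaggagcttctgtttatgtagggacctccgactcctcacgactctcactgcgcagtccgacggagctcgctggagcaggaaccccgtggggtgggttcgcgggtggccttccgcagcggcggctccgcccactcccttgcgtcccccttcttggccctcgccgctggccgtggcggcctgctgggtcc
Slc25a38: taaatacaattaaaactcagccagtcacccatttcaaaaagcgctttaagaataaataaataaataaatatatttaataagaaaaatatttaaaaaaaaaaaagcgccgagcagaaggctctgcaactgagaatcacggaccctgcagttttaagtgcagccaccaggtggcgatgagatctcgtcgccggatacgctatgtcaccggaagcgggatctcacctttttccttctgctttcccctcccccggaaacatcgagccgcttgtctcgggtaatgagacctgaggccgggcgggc
TATAA was found in both of these ADP/ATP carrier windows, beginning 5 bases past the annotated start in Slc25a4 and 26 bases past it in Slc25a5. It was not found in the window of their relative Slc25a31. CCAAT was found at 112 and 56 bases before the start of Slc25a4 and at 142 bases before that of Slc25a36. Neither motif was found in the Slc25a38 window, whose GC content is 45.3%, against 65.7% for Slc25a4, 61.0% for Slc25a5 and 66.7% for Slc25a36.

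RefSeq windows were matched for 50 of the 63 genes, 61 windows in all. TATAA was found in 9.84% of them, and in 13.5% of the windows of genes in the expression table. For CCAAT the shares were 42.6% and 37.8%, with 52.5% in carrier windows and 23.8% in import windows. A homeodomain core, TAATTA, had a match in 0 of the 61 windows and in 2.66% of those of genes in the expression table. GCGCATGC, a core of the motif of the nuclear respiratory factor NRF1, was found in 3.28% and 5.16%, in windows of Slc25a31 and Timm13. An ETS motif, CCGGAAGT, was found in 8.20% and 7.51%, with 5 of 21 import windows (23.8%) and 0 of 40 carrier windows. The import windows were those of Timm10, Timm10b, Timm23, Timm8a2 and Tomm70a. Both strands were searched for each motif; of all 32851 windows of this length, TATAA was in 24.9%, CCAAT in 37.4%, TAATTA in 5.29%, GCGCATGC in 2.71% and CCGGAAGT in 3.89%. TATAA and CCAAT were chosen after the windows had been read. These matches describe letters and say nothing of binding.

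Among the carriers of adenine nucleotides and phosphate, the members parted. Slc25a4 (ANT1), which exchanges ADP for ATP across the inner membrane, stood at 3410 in PB-Gbx2 cells and 5108 in PB cells, 1.498-fold lower in PB-Gbx2 cells. Its ratio lay at percentile 4.21 of genes of similar level. Slc25a5 (ANT2), the form typical of proliferating cells, stood at 11402 in PB-Gbx2 cells and 10604 in PB cells. That is 1.08-fold higher, well inside the spread of similar genes at percentile 69.5. The Slc25a5 transcript shares 46.6% of its 50-base words with 9 other annotated genes, so its level is uncertain. Slc25a31, a form known from the germline, was low in both libraries, at 52 in PB-Gbx2 cells and 64 in PB cells.

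Slc25a3, the phosphate carrier that feeds ATP synthase, stood at 8518 in PB-Gbx2 cells and 6639 in PB cells, 1.28-fold higher at percentile 90.2. The ATP-magnesium/phosphate carriers, which set the size of the adenine nucleotide pool in the matrix, were lower for 3 of 4 members. Slc25a23 stood at 676 in PB-Gbx2 cells and 990 in PB cells, 1.46-fold lower at percentile 6.28. Slc25a24 and Slc25a41 were low in both libraries, at 42 and 26 in PB-Gbx2 cells, against 58 and 36 in PB cells. Slc25a25 stood at 361 in PB-Gbx2 cells and 328 in PB cells. In the whole role group 3 of 8 genes had a positive ratio and 5 a negative one, all short of 1.5-fold. Their median was -0.37 on the log2 scale, but 0.10 when the genes under a level of 100 in both libraries were left out.

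Carriers of carboxylates and of the malate-aspartate shuttle, which moves reducing equivalents into the matrix, were 2 above 0 and 3 below, with a median of -0.16. Slc25a1, which exports citrate for cytosolic lipid synthesis, stood at 1952 in PB-Gbx2 cells and 2652 in PB cells. It was 1.36-fold lower in PB-Gbx2 cells, at percentile 6.14. The aspartate/glutamate carrier Slc25a12 stood at 334 in PB-Gbx2 cells and 467 in PB cells, 1.40-fold lower at percentile 9.86. Its relative Slc25a13 was nearly level, at 2176 in PB-Gbx2 cells and 2053 in PB cells. The oxoglutarate carrier Slc25a11, the other arm of the shuttle, stood at 1450 in PB-Gbx2 cells and 1616 in PB cells, and the dicarboxylate carrier Slc25a10 at 258 in PB-Gbx2 cells and 222 in PB cells. Both lay between percentiles 27.7 and 68.9 of similar genes.

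Amino acid carriers had 2 of 6 genes above 0 and 4 below, with a median of -0.05. Slc25a38, which brings glycine into the matrix for haem synthesis, stood at 635 in PB-Gbx2 cells and 414 in PB cells, 1.53-fold higher. Its log2 ratio was 0.62, at percentile 94.7 of similar genes. The glutamate carrier Slc25a18 had a log2 ratio of -0.62, on levels of 14 in PB-Gbx2 cells and 22 in PB cells. At such levels ratios scatter widely, and it lay at percentile 35.6. The ornithine carrier Slc25a15 was 1.27-fold lower, at 745 in PB-Gbx2 cells and 945 in PB cells. Slc25a22, the glutamate carrier with the higher level per length, was nearly level at 593 in PB-Gbx2 cells and 603 in PB cells, as was Slc25a44, of branched-chain amino acids, at 815 in PB-Gbx2 cells and 784 in PB cells. Slc25a29, of basic amino acids, stood at 17 in PB-Gbx2 cells and 18 in PB cells.

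Carriers of cofactors and other nucleotides were 5 above 0 and 4 below, with a median of 0.11. Slc25a36, a carrier of pyrimidine nucleotides, stood at 12313 in PB-Gbx2 cells and 8342 in PB cells. It was 1.48-fold higher, at percentile 95.2, the highest percentile of the 63 genes. Its transcript shares 11.8% of its 50-base words with another annotated gene, so part of its reads could have been split. Slc25a33, the second pyrimidine nucleotide carrier, stood at 204 in PB-Gbx2 cells and 211 in PB cells. Slc25a17, a peroxisomal member of the family, was 1.23-fold higher, at 1084 in PB-Gbx2 cells and 884 in PB cells. The other 6 lay between log2 ratios of -0.24 and 0.22. Of these, Slc25a16 was the lowest, at 680 in PB-Gbx2 cells and 806 in PB cells, and Slc25a26, which imports S-adenosylmethionine, the highest, at 154 in PB-Gbx2 cells and 132 in PB cells. Slc25a51, the NAD carrier, stood at 670 in PB-Gbx2 cells and 774 in PB cells. Slc25a32, linked to folate and FAD, and Slc25a42, of coenzyme A, had log2 ratios of 0.19 and -0.04.

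The iron and glutathione carriers were 2 above 0 and 2 below. Mitoferrin 1, Slc25a37, which supplies iron for haem in erythroid cells, stood at 786 in PB-Gbx2 cells and 1050 in PB cells, 1.34-fold lower at percentile 9.31. Mitoferrin 2, Slc25a28, was level, at 706 in PB-Gbx2 cells and 705 in PB cells. Slc25a39, which imports glutathione, stood at 4878 in PB-Gbx2 cells and 3996 in PB cells, 1.22-fold higher at percentile 87.7. Its relative Slc25a40 stood at 492 in PB-Gbx2 cells and 535 in PB cells. The uncoupling-protein-like carriers were all below 0. They were Slc25a27 (188 in PB-Gbx2 cells and 280 in PB cells, 1.49-fold lower), Slc25a30 (230 in PB-Gbx2 cells and 252 in PB cells) and Slc25a14 (73 in PB-Gbx2 cells and 83 in PB cells), at percentiles 11.9, 35.9 and 39.5.

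The other 6 carriers, for which no substrate is given here, had low levels except Slc25a46, an outer membrane protein of mitochondrial dynamics, at 624 in PB-Gbx2 cells and 526 in PB cells. Slc25a47 passed 1.5-fold upward, at 28 in PB-Gbx2 cells and 18 in PB cells, and Slc25a48 downward, at 13 in PB-Gbx2 cells and 20 in PB cells. Both lay inside the spread of such low genes, at percentiles 80.0 and 36.2. Slc25a34, Slc25a35 and Slc25a53 stood at 22, 88 and 62 in PB-Gbx2 cells and at 16, 106 and 54 in PB cells. The carnitine carrier Slc25a20, which the rule leaves out, stood at 3082 in PB-Gbx2 cells and 640 in PB cells, a log2 ratio of 2.27, against at most 0.62 among the 41 carriers kept.

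**Figure D3:**
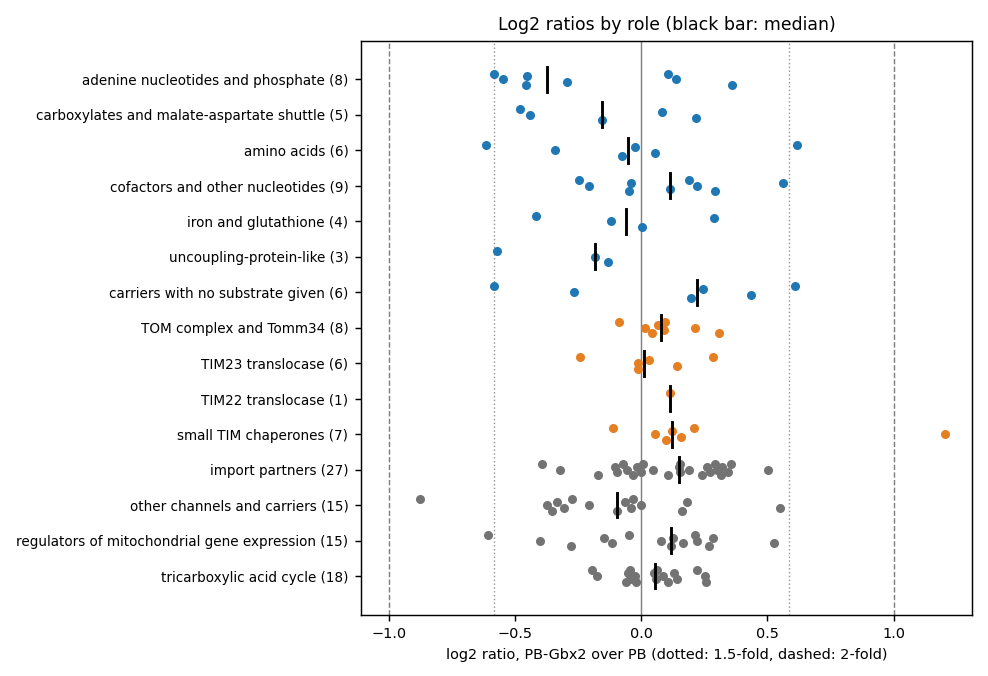
Log2 ratio (PB-Gbx2 over PB) of each gene by role (carriers blue, import genes orange) and for 4 lists of other mitochondrial genes (grey), with the median as a black bar, 1.5-fold dotted and 2-fold dashed; the number of genes is in brackets. TOM and TIM23 genes stay between -0.24 and 0.31, Timm8a2 among the small TIM chaperones lies past 2-fold, and the 3 uncoupling-protein-like carriers are all below 0.

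Import genes differed little between the libraries. Of the 22, 19 (86.4%) were within 1.2-fold, against 21 of 41 carriers (51.2%) and 48.7% of all genes. Because import genes had higher levels than most genes, the absolute ratio of each was also compared with those of genes of similar level. It was below their median for 18 of 22 import genes (81.8%) and for 26 of 41 carriers (63.4%). By construction, as many genes of the whole table lie below that median as above it. At a mean level of at least 100, the absolute ratio was below that median for 17 of 20 import genes (85.0%) and for 16 of 30 carriers (53.3%). Among genes at a mean level of at least 1000, it was below for 9 of 11 import genes and for 3 of 8 carriers. No test was run on these counts.

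Most TOM genes were nearly level, 6 of 8 within 1.1-fold, against 28.2% of all genes. At a mean level of at least 1000, where 7 of the 8 lay, 42.1% of all genes were within 1.1-fold. The receptor Tomm20 stood at 4500 in PB-Gbx2 cells and 4297 in PB cells, and the receptor Tomm70a, which takes carriers and other hydrophobic cargo from cytosolic chaperones, at 5046 in PB-Gbx2 cells and 4898 in PB cells. The channel Tomm40 stood at 2498 in PB-Gbx2 cells and 2344 in PB cells. These 3 were between 1.03-fold and 1.07-fold higher in PB-Gbx2 cells. The central receptor Tomm22 was the sole member below 0, at 2384 in PB-Gbx2 cells and 2532 in PB cells. The small subunits Tomm5 and Tomm7 stood at 1356 and 1698 in PB-Gbx2 cells, against 1270 and 1464 in PB cells, and Tomm7 was 1.16-fold higher. Tomm40l, a relative of the channel, had the highest ratio, 1.24-fold, on levels of 170 in PB-Gbx2 cells and 137 in PB cells. Tomm34, a cytosolic cochaperone that shares the name, stood at 1252 in PB-Gbx2 cells and 1240 in PB cells. In the TOM group as a whole, 7 of 8 ratios were positive, against 7136 of all 14500 genes, with a median of 0.08 on the log2 scale.

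The TIM23 translocase had 3 members above 0 and 3 below, with a median of 0.01. The channel subunit Timm23 stood at 1506 in PB-Gbx2 cells and 1366 in PB cells. Its transcript shares 90.9% of its 50-base words with other annotated genes, so its level is uncertain. Timm50, the receptor, stood at 1238 in PB-Gbx2 cells and 1250 in PB cells, and Timm44, which anchors the import motor, at 1753 in PB-Gbx2 cells and 1717 in PB cells. Both differed by at most 1.02-fold. Timm17a, the stress-sensitive form of a channel subunit, was 1.22-fold higher at percentile 85.6, on 1445 in PB-Gbx2 cells and 1188 in PB cells. Its counterpart Timm17b stood at 828 in PB-Gbx2 cells and 835 in PB cells. Timm21, which links the translocase to the respiratory chain, had the lowest ratio of the import genes (-0.24), at 108 in PB-Gbx2 cells and 128 in PB cells.

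On the carrier route from the small TIM chaperones to TIM22, 7 of the 8 genes had a positive ratio, against 7136 of all 14500 genes. All 8 lay between percentiles 44.2 and 81.4 of genes of similar level. Timm9 and Timm10, partners in the hexameric chaperone that handles the Slc25 carriers, stood at 276 and 308 in PB-Gbx2 cells, against 266 and 283 in PB cells. Timm22, the insertion channel, stood at 288 in PB-Gbx2 cells and 266 in PB cells, and Timm10b, which docks the chaperones to it, at 62 in PB-Gbx2 cells and 67 in PB cells. Timm8b and Timm13 stood at 850 and 804 in PB-Gbx2 cells, against 763 and 695 in PB cells. Timm8a1, whose human counterpart is mutated in a deafness-dystonia syndrome, stood at 272 in PB-Gbx2 cells and 254 in PB cells and shares over 20% of its 50-base words with another gene. Timm8a2, its close relative, was the one gene past 2-fold, at 22 in PB-Gbx2 cells and 9 in PB cells. That lay at percentile 81.4 of genes of such low level.

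**Figure D4:**
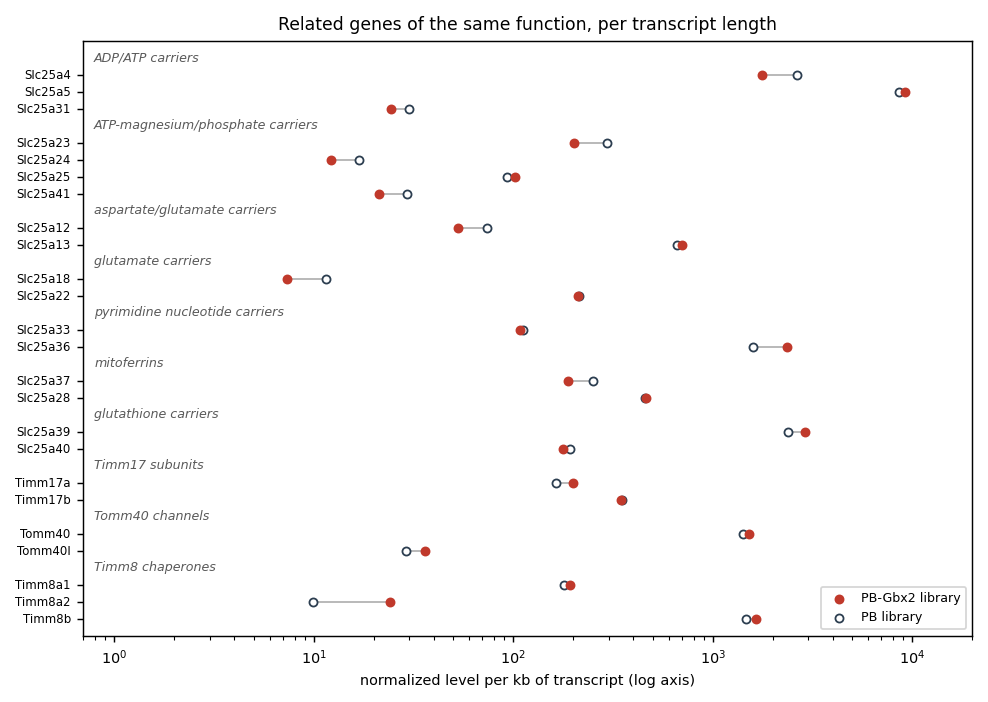
Normalized level per kilobase of transcript (log axis) in the PB-Gbx2 library (filled) and the PB library (open) for 10 families of related genes. Slc25a4, Slc25a12 and Slc25a37 are lower in the PB-Gbx2 library, and their relatives Slc25a5, Slc25a13 and Slc25a28 lie close together in both.

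To set related genes beside each other, their levels were divided by transcript length (the longest protein-coding transcript in GENCODE M21). Whether these normalized levels scale with length is not known, so the shares below depend on that choice. Per kilobase, Slc25a4 stood at 1771 in PB-Gbx2 cells and 2654 in PB cells, and Slc25a5 at 9195 in PB-Gbx2 cells and 8552 in PB cells. Slc25a4 thus made up 16.1% of the summed level of the ADP/ATP carriers in PB-Gbx2 cells and 23.6% in PB cells, while the sum itself, 10990 per kilobase in PB-Gbx2 cells and 11240 in PB cells, was nearly level. Slc25a5 shares 46.6% of its 50-base words with 9 other annotated genes, so its part of this sum is uncertain. Slc25a12 made up 7.01% of the aspartate/glutamate carriers in PB-Gbx2 cells and 10.1% in PB cells, and Slc25a28, the steady mitoferrin, 71.0% of its pair in PB-Gbx2 cells and 64.6% in PB cells. For the pyrimidine nucleotide carriers, Slc25a36 made up 95.6% in PB-Gbx2 cells and 93.5% in PB cells, and the sum was 1.44-fold higher in PB-Gbx2 cells. Each of these differences between relatives rests on 1 library per group.

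Other parts of the import pathway, taken from a list of 27 genes that the rule does not cover, also lacked large ratios. All 27 had a row and none passed 1.5-fold. At a mean level of at least 100, which 26 of the 27 had, 724 of all 10624 genes were 1.5-fold higher and 758 lower. Among the 27, 17 ratios were positive and 9 negative, with a median of 0.15 on the log2 scale. Dnlz, a partner of the matrix chaperone Hspa9, had the highest ratio, at 316 in PB-Gbx2 cells and 223 in PB cells, and the peptidase Xpnpep3 the lowest, at 374 in PB-Gbx2 cells and 491 in PB cells. Within 1.2-fold were 17 of the 27 (63.0%), near the 57.9% of all genes at a mean level of at least 100. The absolute ratio was below the median of similar genes for 16 (59.3%). Both shares were smaller than among the 22 import genes. Among 15 other channels and carriers of the mitochondrion with a row, 3 lay above 0 and 11 below, with a median of -0.10. Mpc1, a subunit of the mitochondrial pyruvate carrier, was 1.85-fold lower, at 104 in PB-Gbx2 cells and 192 in PB cells, at percentile 7.24, while its partner Mpc2 stood at 170 in PB-Gbx2 cells and 150 in PB cells. Sfxn4 had the highest ratio there, at 40 in PB-Gbx2 cells and 27 in PB cells. The uncoupling protein Ucp2, known to limit glucose oxidation in human pluripotent stem cells, was 1.28-fold lower at percentile 8.21, at 2624 in PB-Gbx2 cells and 3354 in PB cells. The porin Vdac3 stood at 1404 in PB-Gbx2 cells and 1818 in PB cells, while Vdac1 and Vdac2 differed by at most 1.05-fold.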

How the data were processed

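RNA of 2 libraries was made with Trizol and a TruSeq RNA kit, per the labels' protocols. STAR and the mouse build mm9 are named, per the submitters' processing notes; the annotation and the counting step were not given in the sources used here. Each level is a score that the authors normalized and rounded before they deposited it, per the file headers and the values: sorted, both libraries are equal in all 14501 rows, so the levels are no read counts. The authors' deposited ratio (fold, PB over PB-Gbx2), its log2 and their p-values, from 1 library per group, are quoted only as theirs. Rows with the same symbol were summed, which left 14500. From these levels, log2 ratios with a pseudocount of 1, calls at 2-fold and 1.5-fold, and percentiles within 20 groups of 725 genes by mean level were computed (Python 3.11.15, pandas 2.3.3, numpy 2.4.6, scipy 1.17.1), with code tested on simulated data. Lengths and shared 50-base words came from GENCODE M21 transcripts (GRCm38), matched for all 63 members, and promoter windows from RefSeq (GRCm38.p6). The table holds no coordinates, so no position on mm9 is given. Genes were named by rule: members past 1.5-fold, the extremes of each role group, a set of core genes and the 2 largest absolute ratios of each list; the remaining members were added for completeness, except 1 that is not reported here by name, and Mpc2, Ucp2 and the Vdac genes after their values were seen. The members and lists were chosen with earlier results of these data known. Of the genes on the role lists, 7 were not analysed here. Alternatives covered the pseudocount, the minimum level, rescaling, level trends, members at 10000 or more and shared sequence.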

Additional observations from a re-analysis of the deposited data

How the results depend on the processing

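The median log2 ratio stayed between -0.08 and -0.01 for the carriers, between 0.08 and 0.09 for the import genes and between 0.02 and 0.06 for all members under the 10 alternatives. Counts moved with the minimum level and with a pseudocount of 5. A pseudocount of 5 left 0 members past 2-fold upward and 0 past 1.5-fold downward. With a minimum level of 100 in either library, 0 members passed 2-fold upward, 1 passed 1.5-fold upward and 0 passed it downward; for all genes, 269 were 2-fold higher, 259 2-fold lower, 829 1.5-fold higher and 870 1.5-fold lower. With a minimum of 300, chosen after seeing the data as was leaving out genes that share sequence, the members gave 0, 1 and 0 and all genes 116, 124, 445 and 483, in the same order. The numbers of genes left at these minimums are not given here, so these counts are not shares. By mean level instead, 1 of 50 members at 100 or more was 1.5-fold higher and 0 were lower. Of all 10624 genes at that mean level, 724 were 1.5-fold higher and 758 lower. The low genes Timm8a2, Slc25a47, Slc25a18 and Slc25a48 drop out by construction, and Slc25a38 is the member left past 1.5-fold. Of the medians over all genes, all members, carriers, import genes, roles and lists, 181 stayed within 0.1 and 7 moved further. All 7 were medians of a role or list. Among them was that of the adenine nucleotide and phosphate carriers, which was 0.10 at either minimum. None of the 404 values of single genes moved by more than 1.5-fold or turned direction past it. This says little of single genes. Minimum levels, leaving members out and rescaling to the same median cannot change a gene's own ratio. The 1.5-fold margin is also wider than most member ratios, so a ratio falling to 0 would mostly have gone unseen. Rescalings say little, since both libraries share a distribution. No paired analysis was possible because a group holds a single library, which also means that none could be left out in turn. The sequencing depth is unknown.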

Other observations

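Genes of the tricarboxylic acid cycle, the matrix pathway that many of the carriers serve, were also nearly level. All 18 listed genes were within 1.2-fold. All 18 had a mean level of at least 1000, where 67.9% of all genes were within 1.2-fold. Among the 18, 10 ratios were positive and 8 negative, and their median was 0.05 on the log2 scale. Their absolute ratio was below the median of genes of similar level for 14 of 18 (77.8%), beside 81.8% of the import genes. The largest ratios were those of the succinyl-CoA ligase subunit Sucla2, at 1736 in PB-Gbx2 cells and 1452 in PB cells, and of the isocitrate dehydrogenase Idh2, at 4010 in PB-Gbx2 cells and 3364 in PB cells.

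Regulators of mitochondrial gene expression had a median of 0.12 over 15 genes with a row, 9 above 0 and 6 below. The coactivator Ppargc1b was 1.53-fold lower at percentile 20.6, at 64 in PB-Gbx2 cells and 98 in PB cells. Esrra, a nuclear receptor that works with such coactivators, was 1.44-fold higher at percentile 88.3, at 310 in PB-Gbx2 cells and 215 in PB cells. Tfam, which packages mitochondrial DNA and takes part in its transcription, stood at 2028 in PB-Gbx2 cells and 2195 in PB cells. Tfam was named after its value was seen.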
